A study of Rattus norvegicus with 12 samples.

Results

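The comparison set cardiomyocytes given one splice form of the transcription factor MEF2C against cardiomyocytes given another. The members were the 3 arrays whose titles name mef2Cγ+ (without 23/24) and the 3 whose titles name mef2Cγ-, 6 of the 12 arrays of the series, read through every probe set that carries a single gene symbol. The study addressed an isoform change of MEF2C in heart failure. Both groups were primary ventricular cardiomyocytes of newborn Wistar rats, plated on collagen for 44 h in medium with 10% horse serum and 5% fetal bovine serum and then kept for 24 h without serum. The γ+ group received adenovirus for the MEF2C form that holds the γ segment, and the γ- group received adenovirus for the form that lacks it. The other 6 arrays were untreated control cultures and cultures given adenovirus for a γ+ variant that the labels call 23/24 without defining it, and they are used here to place the γ+ and γ- levels. The labels call the 3 arrays of each group biological replicates without saying that they came from separate cell isolations, so the p-values measure the spread between these arrays, which may be technical. A virus without an insert was not analysed here. Both compared groups carried virus, the dose is not given in the sources used here, and Mef2c itself, and so the level of each delivered form, was not analysed here.

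MEF2C belongs to the MEF2 family, which binds an A/T-rich motif in the promoters and enhancers of muscle genes and activates sarcomere, metabolic and calcium handling genes in the heart. Class IIa histone deacetylases bind MEF2 proteins and turn them from activators into repressors. Splicing of the Mef2c transcript includes or leaves out a short γ segment in the activation region, and that segment is known as a repressor domain.

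Of 10025 genes tested, 6433 (64.2%) differed between the γ+ and the γ- arrays by limma at a Benjamini-Hochberg adjusted p under 0.05, the rule for a call throughout. There were 2674 genes higher in γ+ (26.7%) and 3759 lower (37.5%). A difference of at least 1 log2, which is 2-fold, was reached by 868 called genes (8.66%), 295 of them higher (2.94%) and 573 lower (5.72%). The median difference over all genes was -0.06 log2. The 3 arrays of γ+ lay wholly above or wholly below those of γ- for 6727 genes (67.1%). With calls this frequent, a list of genes is described below by its direction and its median beside these background shares. The lists and their members were chosen with earlier results of these data known, so a shared direction is a description and not a test. Calls were more frequent among brighter genes: 49.7% were called in the dimmest of 4 equal bins by mean level and 74.1% in the brightest. In the brightest bin 1226 genes were lower and 630 higher.

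**Figure D1:**
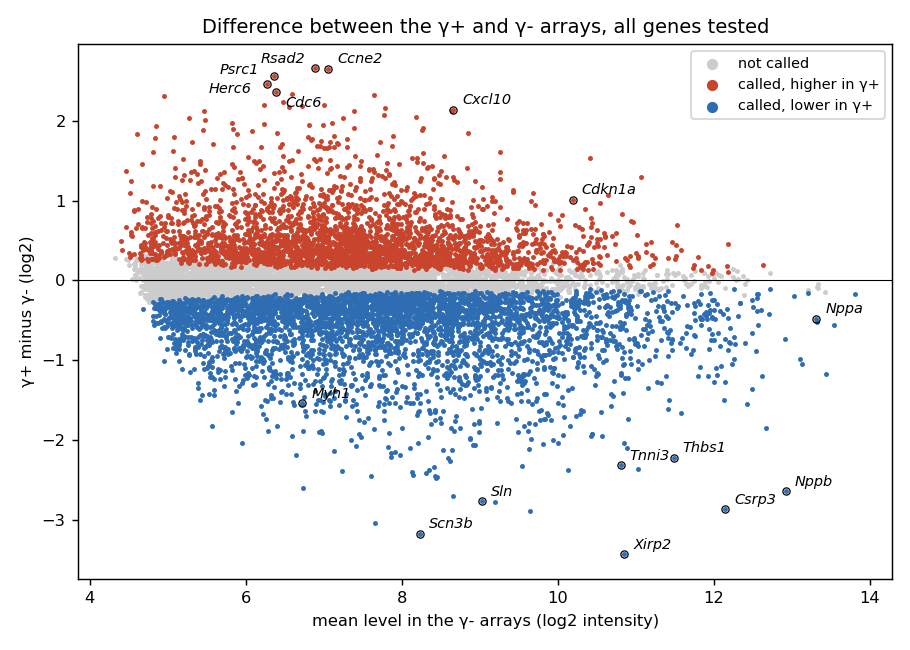
Difference between the γ+ and the γ- arrays (y axis, log2) against the mean level in the γ- arrays (x axis, log2 intensity), 1 point per gene tested; red points were called higher in γ+, blue points called lower, and grey points not called. Among the largest falls, Xirp2, Csrp3 and Nppb were above 10 log2 in γ-, while Ccne2 and Rsad2, the largest rises, were at 7.06 and 6.89 log2 in γ-.

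The 2 groups were not placed evenly around the untreated cells. Of the 868 genes that differed by at least 1 log2, the mean of the control arrays lay nearer to the γ- mean in 861 and nearer to the γ+ mean in 7, and the 23/24 mean gave the same counts. The control mean lay within 0.5 log2 of the γ- mean for 848 of them. The median distance from control was 0.117 log2 for γ- and 1.332 log2 for γ+. Across all genes tested, γ- arrays correlated with control arrays at r of 0.9915 to 0.9937, and γ+ arrays with γ- arrays at 0.9346 to 0.9397. Both values are descriptions across the genes tested on these arrays.

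The arrays of a group were close to each other. The SD of the difference between a pair of arrays over all genes tested was 0.131 to 0.14 within γ- and 0.116 to 0.241 within γ+. Between the groups it was 0.58 to 0.599. The replicate 2 array of γ+ stood apart from its group, with deviations of SD 0.156 from the group mean against 0.096 and 0.097 for replicates 1 and 3. Without it 6641 genes were called, and 6043 of the 6433 calls were kept. Values equal to the last digit occurred on pairs of arrays within γ+ and within γ-, and on 0 of the 9 pairs across them, so each group may have been normalized in a run of its own, and run and delivered form cannot be told apart. Such values were also on 0 of the 9 pairs of γ- with control and 0 of the 9 of γ+ with control, while the 15 pairs among control and 23/24 arrays shared 30 to 111 each. The placements against control, above and below, may therefore cross runs too.

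The labelled cell type was checked on marker genes. All 15 cardiomyocyte markers on the list had a level above the filter, and their mean level was 11.81 to 11.84 log2 on the γ- arrays, 11.79 to 11.82 on the control arrays and 10.50 to 10.55 on the γ+ arrays. Of the 15, 14 were lower in γ+ and the cardiac homeobox factor Nkx2-5 was not called. Markers of other cells of the heart were measurable as well and fell with them. All 11 fibroblast markers, 9 of 9 smooth muscle cell markers, 10 of 10 endothelial markers and 6 of 6 epicardial or mesothelial markers tested were lower in γ+, with list medians of -1.25, -0.75, -0.63 and -0.90 log2. The mean fibroblast marker level was 7.5 to 7.67 log2 on the γ+ arrays and 8.78 to 8.81 on the γ- arrays, without overlap. The 9 macrophage or leukocyte markers tested gave 5 lower (55.6%) and 1 higher (11.1%), beside 37.5% and 26.7% of all genes tested. Their mean levels were 5.96 to 6.02 in γ+ and 6.24 to 6.26 in γ-. Of 6 Schwann cell or neuron markers 4 were lower, among them Dbh, whose γ+ mean was under the filter level of 4.782, Mbp (-0.38 ± 0.11 log2, difference ± SE) and Tubb3 (-0.39 ± 0.11, and -0.25 without γ+ replicate 2), and Ngfr was higher (0.30 ± 0.10). Of 2 erythroid markers 0 were called. Whether the cultures held fewer cells of a type or less of its RNA per cell cannot be told apart on bulk arrays. The part of the other cell types in the results below was not tested.

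**Figure D2:**
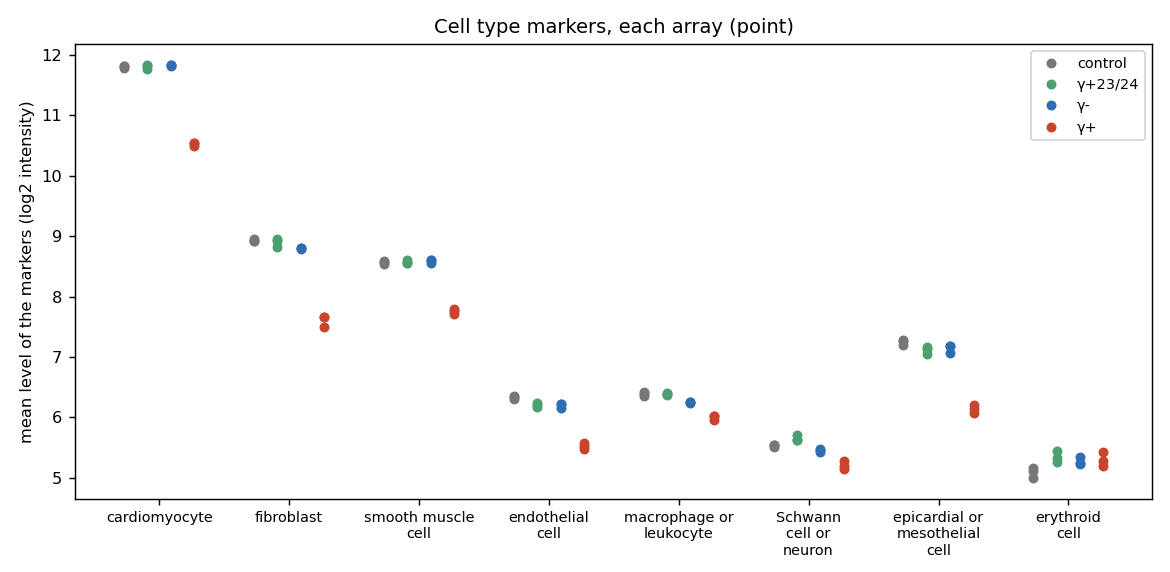
Mean level of the markers of 8 cell types (y axis, log2 intensity) on each of the 12 arrays, 1 point per array, coloured by group. The γ+ arrays lie below the other 9 arrays for the cardiomyocyte, fibroblast, smooth muscle, endothelial, macrophage, Schwann cell or neuron and epicardial lists, and overlap them for the erythroid list.

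Genes of the sarcomere were lower in the γ+ arrays almost without exception. The largest fall among all named genes was in Xirp2, an actin-binding protein of the Z-disc and intercalated disc. Xirp2 read 7.50, 7.42 and 7.35 log2 on γ+ replicates 1 to 3 and 10.87, 10.87 and 10.81 on the γ- replicates. The γ+ arrays were all about 3 log2 lower, and the γ- arrays were close to the control mean of 10.97. The difference was -3.43 ± 0.06 log2 (± SE throughout, n = 3 against 3), with a 95% interval of -3.55 to -3.30 and a limma adjusted p of 5.17e-16, which is a 10.8-fold lower level. Each SE is that of the limma fit, whose spread was estimated over all 12 arrays, and not that of the 6 compared arrays alone. Csrp3, a LIM domain protein at the Z-disc, read 9.30, 9.24 and 9.32 in γ+ and 12.16, 12.12 and 12.15 in γ-. It fell by 2.86 ± 0.04 log2, or 7.27-fold (limma adjusted p = 7.38e-17), and the groups were far apart. Hspb7, a small heat shock protein of the sarcomere, fell by 2.36 ± 0.05.

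The Z-disc, titin and M-band list had 24 members above the level filter of 26 with a named probe set. In γ+ 22 of them were lower, 1 was higher and 1, Ankrd2, was not called, with a median of -1.33 log2 against -0.06 for all genes. The member that was higher was Trim63, the ubiquitin ligase that degrades muscle proteins, which read 8.63, 8.56 and 8.64 in γ+ and 8.49, 8.36 and 8.37 in γ- (0.21 ± 0.06, limma adjusted p = 0.00421). The falls ranged from Xirp2 down to Pdlim7 (-0.71). Titin itself, Ttn, the spring of the sarcomere, was among the smaller falls at -0.80. Genes given by their difference alone, with no array values and no SE, here and below, were named after their values were seen.

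All 14 thick filament genes tested of 15 with a named probe set were lower, with a median of -1.22. The atrial light chain Myl7 read 8.58, 8.43 and 8.44 on the γ+ arrays and 10.42, 10.37 and 10.50 on the γ- arrays, a fall of 1.95 ± 0.06 (limma adjusted p = 1.82e-13). The cardiac myosin heavy chains fell by nearly equal amounts. Myh6, the fast α chain, read 10.92, 10.78 and 10.97 in γ+ and 12.42, 12.44 and 12.43 in γ- (-1.54 ± 0.05), and Myh7, the slow β chain, read 10.66, 10.43 and 10.79 and 12.10, 12.15 and 12.13 (-1.499 ± 0.08). Their 95% intervals of -1.65 to -1.43 and -1.67 to -1.33 overlapped widely. Whether the probe sets of these related genes measure them separately was not tested. Myh1, described further below, was among the 14. The light chain Myl1 fell by 1.54 ± 0.06.

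All 12 thin filament genes tested of 13 with a named probe set were lower, with a median of -1.02. Cardiac troponin I, Tnni3, the subunit that inhibits contraction until calcium binds, read 8.51, 8.54 and 8.45 in γ+ and 10.90, 10.69 and 10.82 in γ-. This was the largest fall of the list at 2.31 ± 0.06 or 4.95-fold (limma adjusted p = 1.64e-14), and the groups were separated by over 2 log2. Cardiac actin Actc1 read 12.34, 12.21 and 12.25 against 13.44, 13.44 and 13.42 (-1.16 ± 0.04), skeletal actin Acta1 fell by 0.99 ± 0.05 and β-tropomyosin Tpm2 by 1.20 ± 0.05. The smallest fall was in cardiac troponin T, Tnnt2 (-0.56).

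**Figure D3:**
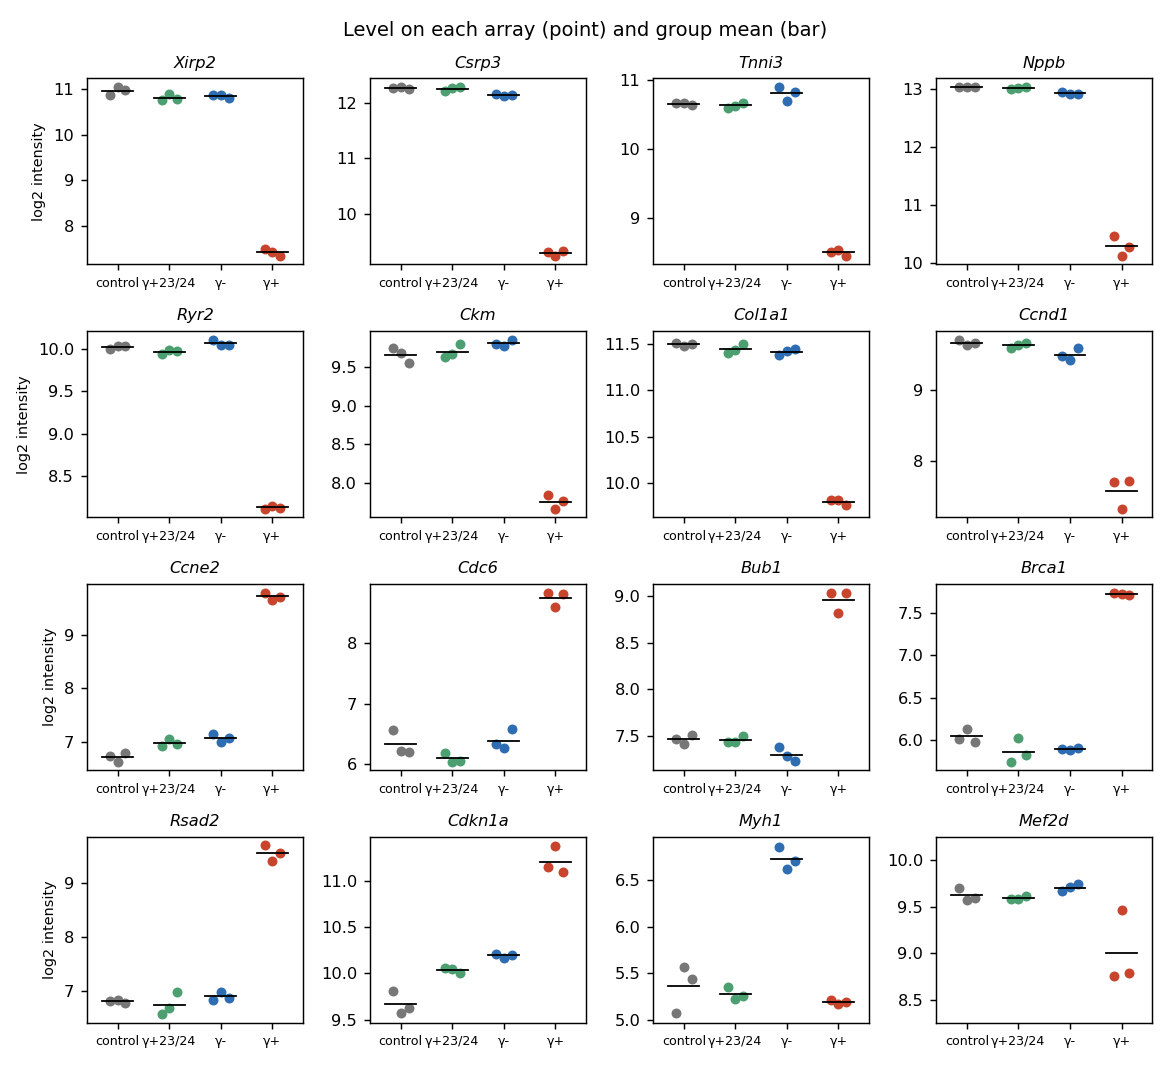
Level of 16 genes (y axis, log2 intensity, each panel at its own range of at least 2 log2) on the 3 arrays of each group, with the group mean as a bar. In the first 8 panels, from Xirp2 to Ccnd1, the γ+ arrays are the low ones; in the panels of Ccne2, Cdc6, Bub1, Brca1, Rsad2 and Cdkn1a they are the high ones; Myh1 is high in γ- alone, and Mef2d shows γ+ replicate 2 apart from the other γ+ arrays.

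Promoter sequences were read for these genes because MEF2 factors are known to act through a defined A/T-rich motif. RefSeq promoters of the GRCr8 assembly, 250 bases before to 50 after the first listed start, were on hand for 8309 of the 10025 genes tested. The MEF2 consensus was searched on both strands. Since it reads alike on both, a site counts once. It was present in 7 of the 19 Z-disc, titin and M-band promoters on hand (36.8%), in 117 of the 8309 promoters of all genes tested (1.41%) and in 924 of 27457 promoters in the table (3.37%). Of the 7 windows 6 are shown, 5′ to 3′ along the gene, with the match in capitals and up to 12 bases either side.
Xirp2 (chr3:72534100-72534133, + strand): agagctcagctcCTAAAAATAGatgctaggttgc
Hspb7 (chr5:159010651-159010684, + strand): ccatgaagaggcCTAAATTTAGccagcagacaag
Speg (chr9:84314334-84314367, + strand): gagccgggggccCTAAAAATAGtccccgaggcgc
Fhl2 (chr9:52954549-52954582, - strand): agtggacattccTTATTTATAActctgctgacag
Smpx (chrX:41107217-41107250, - strand): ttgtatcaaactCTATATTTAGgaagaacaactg
Ttn (chr3:82332255-82332288, - strand): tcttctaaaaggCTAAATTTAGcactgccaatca
These 6 genes were lower in γ+, Xirp2, Hspb7, Speg (-1.52), Fhl2 (-1.38), Smpx (-1.03) and Ttn, and their match began 30 to 166 bases before the start site. The sequence of the 250 bases before the start of Xirp2, the gene with the largest fall, shows its single match in place.
Xirp2 (chr3:72533936-72534185, + strand): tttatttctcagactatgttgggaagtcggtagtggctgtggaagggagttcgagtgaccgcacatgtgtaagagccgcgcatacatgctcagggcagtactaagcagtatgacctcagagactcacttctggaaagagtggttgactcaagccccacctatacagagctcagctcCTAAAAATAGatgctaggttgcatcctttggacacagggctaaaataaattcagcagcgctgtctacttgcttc
Other lists that fell held the match in unequal shares. It was in 6 of 27 promoters of known MEF2 target genes (22.2%), which share members with the Z-disc list, in 2 of 13 thick filament promoters (15.4%, and 3 of 13 over all listed starts), in 0 of 10 thin filament promoters, in 0 of 28 matrix promoters and in 0 of 15 smooth muscle promoters of the genes tested. Over all genes lower in γ+ by at least 1 log2 it was in 20 of 442 (4.52%), and over those higher by at least 1 log2 in 4 of 249 (1.61%). The CArG box, the site of serum response factor, was in 13 of the 442 promoters of the lower genes (2.94%) and in 102 of the 8309 (1.23%), and no tested promoter held overlapping CArG and MEF2 matches. A match is a stretch of letters and not a measured site, and distal enhancers were outside the window.

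Known MEF2 target genes as a list were mostly lower. The list shares members with the sarcomere lists. Of 36 members tested, 33 were lower, 2 higher and 1, Gadd45b, not called, with a median of -1.18. The higher members were Trim63 and Bop1, a ribosome biogenesis factor, which read 7.25, 7.34 and 7.42 in γ+ and 7.01, 6.89 and 7.05 in γ- (0.35 ± 0.07, limma adjusted p = 0.000218). The place of Bop1 among known MEF2 targets is uncertain, so the counts and the median of this list include 1 doubtful member. Srpk3, a muscle kinase of splicing factors whose gene MEF2 drives, read 5.64, 5.57 and 5.44 in γ+ and 6.56, 6.59 and 6.46 in γ-, a 1.98-fold lower level (limma adjusted p = 3.82e-08).

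The MEF2 family and its partners moved in both directions. Of 30 genes tested on this list, which holds the MEF2 factors, class IIa deacetylases, kinases, calcineurin and splicing regulators, 15 were lower and 6 higher, with a median of -0.15. The shares lower and higher were 50% and 20%, beside 37.5% and 26.7% of all genes tested. Mef2a was lower and Mef2b higher. Mef2a read 9.76, 9.85 and 9.78 in γ+ and 10.25, 10.20 and 10.21 in γ- (-0.43 ± 0.05, limma adjusted p = 4.96e-07), and Mef2b read 5.72, 5.85 and 5.61 and 4.71, 4.93 and 4.77 (0.92 ± 0.13, limma adjusted p = 1.2e-05). The γ- mean of Mef2b, 4.80, was near the filter level of 4.782, so the size of its rise is uncertain. Mef2d read 8.76, 9.47 and 8.79 in γ+ and 9.67, 9.71 and 9.75 in γ-. Its fall of 0.70 ± 0.13 (limma adjusted p = 0.000149) held a wide γ+ spread, since replicate 2 lay close to the γ- arrays and the other 2 lay about 0.9 log2 below them. Of the class IIa deacetylases, Hdac5 read 7.57, 7.45 and 7.51 in γ+ and 7.51, 7.51 and 7.55 in γ-, with overlapping arrays and a 95% interval of the difference of -0.14 to 0.11, and the sign of its difference turned under other scalings. Hdac4 gave an interval of -0.03 to 0.31 and was not called (limma adjusted p = 0.136), though it was called with arrays centred on their medians (0.0458) or quantile normalized (0.0413). Hdac7 fell by 0.30 ± 0.08 (limma adjusted p = 0.00578) with overlapping arrays. The largest fall on the list was in Rcan1, an inhibitor of calcineurin that calcineurin signalling itself induces, which read 7.98, 7.91 and 8.01 in γ+ and 10.01, 9.95 and 10.05 in γ- (-2.03 ± 0.05). Sik1, a kinase of class IIa deacetylases, fell by 1.13 ± 0.06. The splicing regulator Rbfox1 read 4.80, 4.68 and 4.82 in γ+, with a mean under the filter level, and 6.30, 6.30 and 6.23 in γ-. The acetyltransferase Ep300 was higher by 0.53 ± 0.09 and the splicing factor Srsf1 by 0.42 ± 0.07.

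Cardiac transcription factors were mixed, and several core factors were not called. Of 30 tested, 13 were lower, 5 higher and 12 not called, with a median of -0.11. The shares lower and higher were 43.3% and 16.7%, beside 37.5% and 26.7% of all genes tested. Nkx2-5 (9.51 ± 0.06 log2 in γ+ and 9.53 ± 0.14 in γ-, mean ± SD, n = 3) and Tbx5 (7.91 ± 0.17 and 7.83 ± 0.08), also named after their values were seen, were not called. Gata4 was lower by 0.44 and Gata6 higher by 0.30 ± 0.06. The largest falls were in Hopx, a homeodomain protein of the developing heart, which read 5.98, 6.09 and 6.02 in γ+ and 7.85, 7.70 and 7.76 in γ- (-1.74 ± 0.06), and in Myocd, the coactivator myocardin (-1.46 ± 0.10). Tbx20 fell by 0.62 ± 0.05. The other higher members were Foxo3 (0.47 ± 0.09), Nfatc3 (0.52 ± 0.06), Hey2 (0.30 ± 0.09, and 0.17 without γ+ replicate 2) and Foxo1 (0.24 ± 0.09). Foxo1 lost its call without γ+ replicate 2 (limma adjusted p = 0.0905) and without γ- replicate 2 (0.12).

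**Figure D4:**
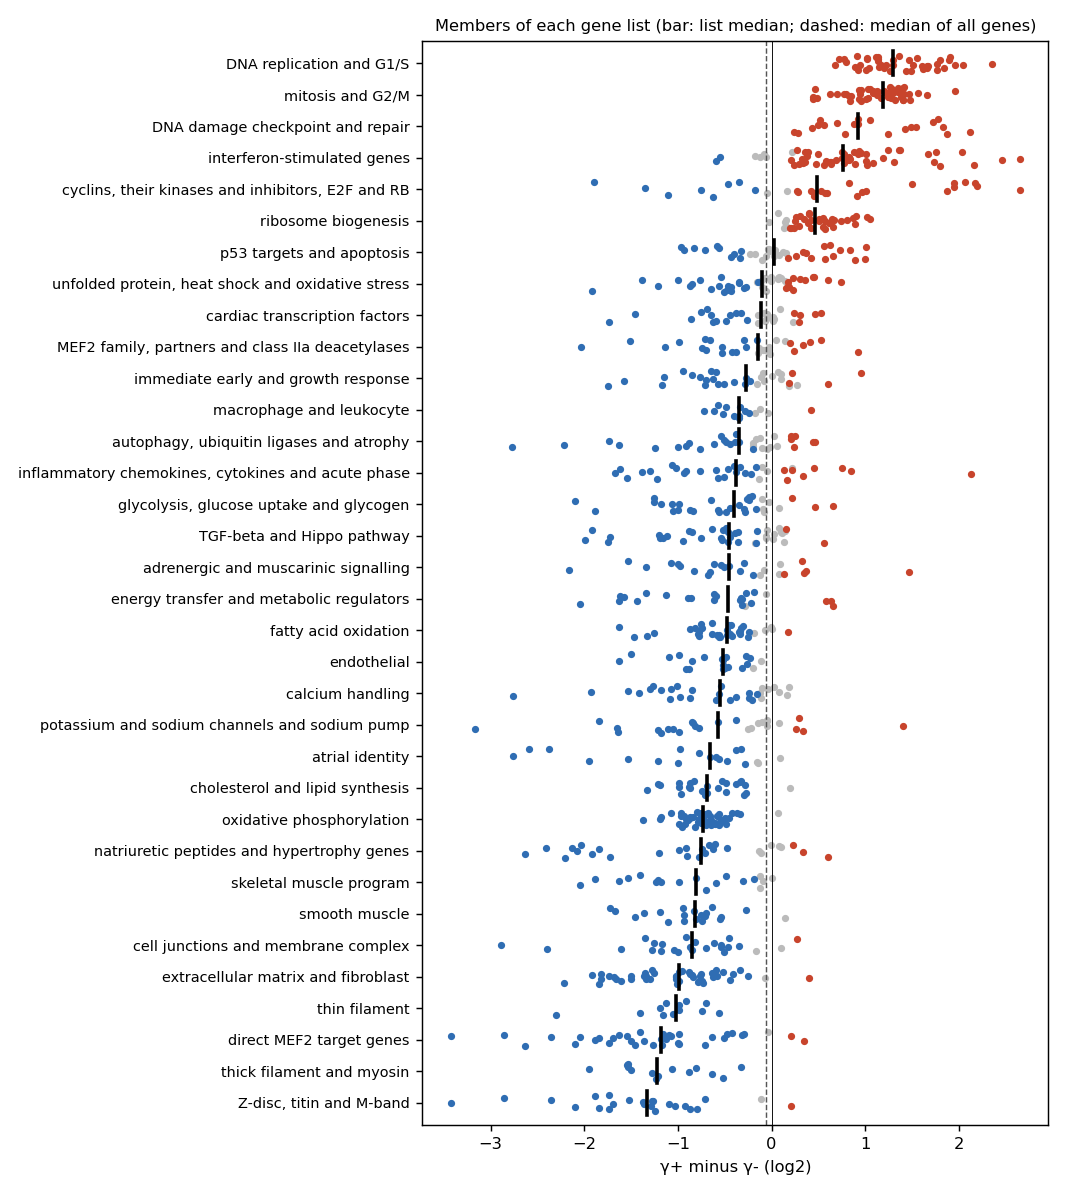
Difference between γ+ and γ- (x axis, log2) of each tested member of 34 gene lists (1 point per gene), lists ordered by their median; red points were called higher in γ+, blue points called lower and grey points not called, the bar is the median of the list and the dashed line the median of all genes at -0.06. Replication, mitosis, repair, interferon, cyclin and ribosome biogenesis lists lie to the right, and sarcomere, matrix, junction and metabolic lists to the left.

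Most natriuretic peptide and hypertrophy genes were lower in γ+. Of 28 genes tested, 20 were lower and 3 higher, with a median of -0.76. Nppb, the B-type natriuretic peptide, read 10.46, 10.13 and 10.27 in γ+ and 12.95, 12.91 and 12.92 in γ-, a 6.22-fold lower level (-2.64 ± 0.06, limma adjusted p = 1.46e-14). Nppa, the atrial peptide, read 12.88, 12.73 and 12.89 in γ+ and 13.31, 13.33 and 13.31 in γ-, a fall of 0.48 ± 0.05 that was 0.24 after cyclic loess normalization, an alternative added after seeing the data. Both were separated between the groups. The growth factor Igf1 fell by 2.41 ± 0.06, and endothelin, Edn1, by 2.08 and the angiotensin receptor Agtr1a by 2.13. The 3 higher members were the stress factor Atf3 (7.82, 7.26 and 7.73 in γ+ and 7.06, 6.89 and 7.03 in γ-, 0.61 ± 0.12), Il6 (0.33 ± 0.11) and the haem oxygenase Hmox1 (0.23 ± 0.07). Il6 lost its call without γ+ replicate 2 (limma adjusted p = 0.0925) and Hmox1 without γ- replicate 2 (0.0562). The γ- mean of Il6, 4.84, was near the filter level of 4.782.

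Calcium handling genes were lower or not called. Of 30 tested, 22 were lower and 0 higher, with a median of -0.55. Ryr2, the calcium release channel of the sarcoplasmic reticulum, read 8.12, 8.15 and 8.13 in γ+ and 10.11, 10.04 and 10.05 in γ-, a 3.81-fold lower level (-1.93 ± 0.05, limma adjusted p = 1.64e-14). Sarcolipin, Sln, a small inhibitor of the calcium pump that is typical of atrium, read 6.47, 5.98 and 6.36 and 9.03, 8.92 and 9.13 (-2.76 ± 0.10). The pump itself, Atp2a2, read 10.95, 10.69 and 10.92 in γ+ and 12.04, 12.05 and 12.02 in γ- and fell by 1.18 ± 0.06, and its inhibitor phospholamban, Pln, by 0.98. Casq2, the calcium store protein, fell by 1.07 ± 0.04. The 8 members that were not called included the inositol trisphosphate receptors Itpr1 and Itpr2, the store sensor Stim1 and the plasma membrane pump Atp2b1.

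Channel genes split with 15 of 27 lower (55.6%) and 4 higher (14.8%), at a median of -0.57. Of all genes tested, 37.5% were lower and 26.7% higher. Scn3b, a β subunit of the sodium channel, read 5.02, 5.12 and 5.06 in γ+ and 8.25, 8.19 and 8.26 in γ- (-3.17 ± 0.07, 8.99-fold, limma adjusted p = 3.67e-15). The γ+ arrays were near the level of 4.78 below which probe sets were left out. Kcnq1, the channel of the slow delayed rectifier current, fell by 1.84 ± 0.07, and Atp1b1, a β subunit of the sodium pump, by 1.65 ± 0.04. Against the majority, Kcnd2, an α subunit of the transient outward potassium channel, read 6.52, 6.32 and 6.65 in γ+ and 4.87, 5.10 and 5.31 in γ-, a 2.65-fold higher level (limma adjusted p = 7.74e-08). The γ- mean of Kcnd2, 5.09, was near the filter level of 4.78, so the size of its rise is uncertain. Kcnd3, a relative of Kcnd2, was lower by 1.11. Fgf13 (0.29 ± 0.09), Atp1b2 (0.34 ± 0.12) and Kcnk1 (0.27 ± 0.09) were higher by less. Atp1b2 was 0.18 and not called without γ+ replicate 2 (limma adjusted p = 0.115) and lost its call without γ- replicate 1 (0.0897), and Kcnk1 lost its call without γ+ replicate 3 (0.0552) or without γ- replicate 2 (0.0604) or 3 (0.0778).

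Adrenergic signalling genes showed 16 lower (64%) and 5 higher (20%) of 25, beside 37.5% and 26.7% of all genes tested. Their median was -0.45. The α receptor Adra1a read 5.84, 5.49 and 5.80 in γ+ and 7.85, 7.87 and 7.89 in γ- (-2.16 ± 0.09), and the β receptor Adrb1 was lower by 0.45. Rgs2, a brake on G proteins, fell by 1.54 ± 0.10, and the anchoring protein Akap6 by 1.34 ± 0.06. Arrb2, a β-arrestin that silences and traffics receptors, was the exception in size. It read 7.28, 7.33 and 7.27 in γ+ and 5.97, 5.69 and 5.82 in γ-, a 2.76-fold higher level (limma adjusted p = 9.17e-10), while its paralog Arrb1 was not called. Grk2 (0.37 ± 0.08), Gnai3 (0.34 ± 0.08), Prkar2a (0.32 ± 0.07) and Gnai2 (0.13 ± 0.05) were also higher, and Gnai2 lost its call in 4 of the 6 fits that left out an array, at limma adjusted p-values of 0.0551 to 0.0873, and was 0.21 to 0.26 under other scalings.

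Junction and membrane complex genes were lower in 22 of 25, with a median of -0.85. Itgb1bp2, the integrin-binding protein melusin, read 6.75, 6.65 and 6.88 in γ+ and 9.64, 9.60 and 9.68 in γ- (-2.89 ± 0.06, 7.39-fold, limma adjusted p = 5.02e-15). Cavin4, a muscle protein of caveolae, fell by 2.40 ± 0.08, dystrophin, Dmd, by 1.26 ± 0.05, and the gap junction protein Gja1 by 1.17. The one higher member was Ank2, an ankyrin that anchors ion pumps (7.77, 7.71 and 7.60 in γ+ and 7.39, 7.44 and 7.43 in γ-, 0.28 ± 0.06).

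Atrial and skeletal muscle genes fell as well. Of 19 atrial genes tested 16 were lower and 0 higher (median -0.66), among them Sln and Bmp10, a growth factor of the atrial wall (4.19, 4.28 and 3.98 in γ+ and 6.91, 6.63 and 6.67 in γ-). All γ+ values of Bmp10 were under the filter level, so it passed the filter through the other groups and the size of its fall is not given. Of 19 skeletal muscle genes tested of 30 with a named probe set, 15 were lower and 0 higher (median -0.80).

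Energy metabolism genes were lower across pathways, with list medians from -0.73 to -0.40. Of the oxidative phosphorylation genes 50 of 51 were lower and 0 higher, with a median of -0.73, and 4 of them fell by at least 1 log2. Cox5b, a subunit of cytochrome oxidase, read 9.22, 9.19 and 9.31 in γ+ and 10.15, 10.19 and 10.24 in γ- (-0.95 ± 0.05, limma adjusted p = 2.03e-10). Cox6a2, its heart and muscle subunit, read 11.54, 11.38 and 11.49 and 12.26, 12.25 and 12.30 (-0.80 ± 0.05), and Ndufb9 of complex I fell by 0.75 ± 0.04. The one member that was not called was Atp5f1c of the ATP synthase.

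Fatty acid oxidation genes were lower in 30 of 35 at a median of -0.48. Cpt1b, the muscle enzyme that commits fatty acids to mitochondria, read 7.004, 6.75 and 6.92 in γ+ and 8.60, 8.43 and 8.55 in γ- (-1.63 ± 0.07, limma adjusted p = 8.01e-12). Acsl1 fell by 1.33 ± 0.07 and the fatty acid transporter Cd36 by 1.25 ± 0.07. Ech1 alone was higher (0.18 ± 0.06), and it lost its call without γ+ replicate 2 (limma adjusted p = 0.0691) or without γ- replicate 2 (0.0503) or 3 (0.0557).

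Of 32 glycolysis and glycogen genes 24 were lower and 3 higher, at a median of -0.40. The muscle forms led the falls: glycogen phosphorylase, Pygm, read 8.76, 8.75 and 8.87 in γ+ and 10.86, 10.89 and 10.92 in γ- (-2.10 ± 0.05), and the enolase Eno3 read 6.65, 6.86 and 6.86 and 8.73, 8.60 and 8.68 (-1.88 ± 0.07). Pdk2, a kinase that inhibits pyruvate dehydrogenase, fell by 1.26 ± 0.05. Its paralog Pdk1 was higher by 0.22 ± 0.06, with Ppp1r3a (0.46 ± 0.10) and Pfkfb1, whose γ- mean was under the filter level.

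Of 24 genes of energy transfer and metabolic control 19 were lower and 3 higher, at a median of -0.47. Muscle creatine kinase, Ckm, read 7.84, 7.67 and 7.76 in γ+ and 9.80, 9.77 and 9.85 in γ- (-2.05 ± 0.07, 4.14-fold, limma adjusted p = 2.61e-13), and the brain form Ckb fell by 1.34 ± 0.06. Myoglobin, Mb, read 8.78, 8.58 and 8.73 in γ+ and 10.30, 10.31 and 10.37 in γ-. The coactivators Ppargc1b (-1.62 ± 0.07) and Ppargc1a (-1.12) and the receptor Ppara (-1.57) were lower. The 3 higher members all act on mitochondrial gene expression: the nuclear factors Nrf1 (7.89, 7.67 and 7.71 in γ+ and 7.13, 7.11 and 7.31 in γ-, 0.58 ± 0.07) and Gabpa (0.63 ± 0.07), and Tfam, the packaging factor of mitochondrial DNA (7.97, 7.79 and 7.95 and 7.12, 7.26 and 7.38, 0.65 ± 0.09). Cholesterol and lipid synthesis genes were lower in 24 of 25 with 0 higher (median -0.69), among them the desaturases Scd (-1.22 ± 0.06), Fads1 (-0.99 ± 0.04) and Sc5d (-0.88 ± 0.05).

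Genes of DNA replication were higher in γ+ without exception. All 43 tested members of the replication and G1/S list, of 44 with a named probe set, were higher, with a median of 1.30 log2, and 35 of them by at least 1 log2. Cdc6, which loads the replicative helicase at origins, read 8.84, 8.60 and 8.81 in γ+ and 6.33, 6.26 and 6.59 in γ- (2.35 ± 0.11, 5.11-fold, limma adjusted p = 1.43e-11). The γ- arrays were near the control mean of 6.33. The helicase subunit Mcm5 read 10.20, 10.23 and 10.25 in γ+ and 8.13, 8.12 and 8.29 in γ- (2.05 ± 0.07), Pcna, the polymerase clamp, read 10.07, 10.09 and 10.14 and 8.63, 8.55 and 8.45 (1.55 ± 0.06), and the primase subunit Prim2 was higher by 1.66 ± 0.07. The smallest rises were in Pola2 (0.68) and Rrm1 (0.72).

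The E2F site TTTCCCGC or TTTGGCGC, searched on both strands, was found in 13 of the 39 replication and G1/S promoters on hand (33.3%) and in 247 of the 8309 promoters of all genes tested (2.97%). Among genes higher in γ+ by at least 1 log2 it was in 35 of 249 (14.1%), and among those lower by at least 1 log2 in 8 of 442 (1.81%). The windows of the 4 members with a match and the largest rise are shown, with the match in capitals on whichever strand it lay, in the direction of the gene.
Mcm5 (chr19:13488793-13488824, + strand): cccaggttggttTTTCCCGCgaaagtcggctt
Cdt1 (chr19:67529269-67529298, + strand): gggaagtagcttTTTGGCGCcatggcgcag
Mcm6 (chr13:42404472-42404503, - strand): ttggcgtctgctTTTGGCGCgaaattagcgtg
Timeless (chr7:1239438-1239469, + strand): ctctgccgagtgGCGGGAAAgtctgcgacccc
These were Mcm5, Cdt1 (1.96), Mcm6 (1.91) and Timeless (1.90). The 250 bases before the start of Mcm5 held matches at 2 places, one on each strand.
Mcm5 (chr19:13488563-13488812, + strand): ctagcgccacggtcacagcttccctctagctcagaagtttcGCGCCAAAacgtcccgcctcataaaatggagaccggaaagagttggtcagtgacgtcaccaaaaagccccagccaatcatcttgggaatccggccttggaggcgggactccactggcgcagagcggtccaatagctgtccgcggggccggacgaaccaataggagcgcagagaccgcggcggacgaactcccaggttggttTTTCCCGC

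Cyclins, their kinases and inhibitors, E2F factors and RB proteins were called in both directions. Of 30 tested 20 were higher and 8 lower, with a median of 0.49. The E-type cyclins, which drive entry into S phase, were higher: Ccne2 read 9.78, 9.65 and 9.71 in γ+ and 7.13, 6.99 and 7.06 in γ- (2.65 ± 0.07, 6.28-fold, limma adjusted p = 2.06e-14), and Ccne1 read 9.01, 8.84 and 8.96 and 7.01, 6.95 and 7.003 (1.95 ± 0.07). The D-type cyclins, which act earlier in G1 and respond to growth factors, were lower: Ccnd1 read 7.71, 7.34 and 7.72 in γ+ and 9.46, 9.41 and 9.58 in γ- (-1.89 ± 0.08, limma adjusted p = 9.26e-12), Ccnd2 read 9.36, 9.21 and 9.49 and 10.47, 10.42 and 10.49 (-1.11 ± 0.06), and Ccnd3 was lower by 0.17. In each of Ccne1, Ccne2, Ccnd1 and Ccnd2 the groups did not overlap. The kinase partner of the E cyclins, Cdk2, was higher by 1.88, while of the partners of the D cyclins Cdk6 was lower by 0.76 and Cdk4 higher by 0.28. The atypical repressors E2f7 (8.71, 8.80 and 8.69 in γ+ and 6.62, 6.50 and 6.57 in γ-, 2.17 ± 0.08) and E2f8 (9.07, 9.42 and 9.10 and 7.11, 6.92 and 6.996, 2.19 ± 0.09) rose most among E2F factors, and the activator E2f1 rose by 0.96. Of the kinase inhibitors, Cdkn1a, the p21 protein, read 11.15, 11.37 and 11.10 in γ+ and 10.21, 10.17 and 10.20 in γ- (1.01 ± 0.07, limma adjusted p = 2.54e-09), and Cdkn1c (1.5), Cdkn2c (0.92) and Cdkn1b (0.45) were higher. Cdkn2b read 7.01, 6.79 and 6.64 in γ+ and 8.14, 8.18 and 8.16 in γ- and fell by 1.35 ± 0.08, and Cdkn2a was lower by 0.34. Cdkn1a and Ccne2 were also higher in γ- than in untreated control, by 0.53 (limma adjusted p = 0.000822) and 0.35 (limma adjusted p = 0.00728).

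All 56 tested genes of mitosis and G2/M were higher, of 57 with a named probe set, with a median of 1.19, and 39 of them by at least 1 log2. Bub1, a kinase of the spindle checkpoint, read 9.04, 8.82 and 9.04 in γ+ and 7.38, 7.29 and 7.23 in γ- (1.67 ± 0.07, limma adjusted p = 4.97e-12). Cyclin Ccnb2 read 9.97, 9.91 and 9.99 and 8.65, 8.61 and 8.72 (1.30 ± 0.06), and the spindle factor Tpx2 read 9.66, 9.69 and 9.75 and 8.48, 8.37 and 8.39 (1.29 ± 0.05). Each of these was above the γ- arrays on all 3 γ+ arrays, as were 55 of the 56 members. Of all genes tested, 67.1% were separated in this way in either direction. The mitotic kinases Cdk1 (1.08), Aurkb (1.41) and Plk1 (1.36) rose by similar amounts.

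The cell cycle genes homology region, TTTGAA, is a short element of late cell cycle promoters and was searched on both strands. It was found in 32 of the 47 mitosis and G2/M promoters on hand (68.1%), in 3 of the 39 replication and G1/S promoters (7.69%) and in 928 of the 8309 promoters of all genes tested (11.2%). The E2F site showed the opposite order, with 1 of the 47 mitosis and G2/M promoters (2.13%). No tested promoter held overlapping matches of both. The windows of the 4 mitosis and G2/M members with a match and the largest rise are shown in the same way.
Fbxo5 (chr1:44607760-44607789, - strand): ttgggcacgaaaTTCAAAgattttaaaagt
Smc4 (chr2:155550190-155550219, + strand): tttctcctgtctTTCAAAtgctgtcgttct
Kif23 (chr8:71320646-71320675, - strand): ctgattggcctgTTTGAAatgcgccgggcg
Plk4 (chr2:125730486-125730515, + strand): cggcgggaatttTTCAAAatgggagcatcg
These were Fbxo5 (1.41), Smc4 (1.41), Kif23 (1.40) and Plk4 (1.39). A 6-base element is met often, as its share of 18.1% among all promoters in the table shows.

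**Figure D5:**
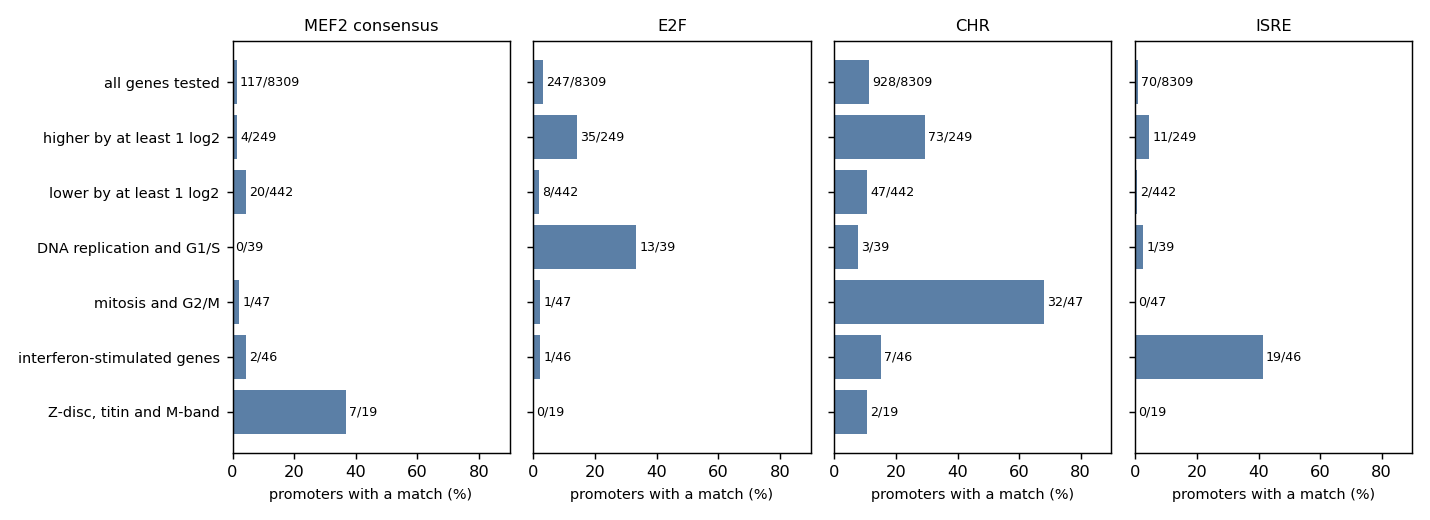
Share of promoters with at least 1 match to each of 4 motifs (x axis, percent), for all genes tested, for genes that differed by at least 1 log2 and for 4 gene lists; the numbers beside the bars are promoters with a match over promoters on hand. The longest bar of each panel belongs to a different list: Z-disc, titin and M-band for MEF2 (7 of 19), replication and G1/S for E2F (13 of 39), mitosis and G2/M for the homology region (32 of 47) and interferon-stimulated genes for the interferon element (19 of 46).

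All 21 DNA damage checkpoint and repair genes tested, of 24 with a named probe set, were higher, with a median of 0.93. Brca1, which acts in homologous recombination, read 7.74, 7.72 and 7.71 in γ+ and 5.90, 5.88 and 5.91 in γ- (1.83 ± 0.08, limma adjusted p = 6.29e-12). Fancd2, of the crosslink repair pathway, read 8.97, 8.77 and 8.93 and 7.27, 7.06 and 7.19 (1.72 ± 0.08), and the histone H2ax rose by 1.43 ± 0.06. The smallest rises were in Parp1 (0.24) and Mre11 (0.29). Of 38 ribosome biogenesis genes 32 were higher and 0 lower, at a median of 0.47. Nolc1, a nucleolar phosphoprotein, read 9.01, 9.01 and 8.97 in γ+ and 7.97, 7.92 and 7.94 in γ- (1.05 ± 0.08), Ddx18 rose by 0.90 ± 0.06 and Gnl3 by 0.87 ± 0.06.

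The p53 target and apoptosis list had no common direction, with 14 higher, 10 lower and 12 not called of 36 and a median of 0.03. The shares higher and lower were 38.9% and 27.8%, beside 26.7% and 37.5% of all genes tested. Among p53 targets, Mdm2, the ligase that degrades p53, read 9.99, 9.82 and 9.95 in γ+ and 9.004, 9.07 and 9.01 in γ- (0.89 ± 0.07), and Bax, a pore-forming cell death protein, read 10.11, 10.36 and 10.12 and 9.28, 9.14 and 9.17 (0.998 ± 0.07, limma adjusted p = 3.08e-09). Cycs, cytochrome c, which also serves in respiration, fell by 0.97 ± 0.06. Gadd45g (-0.83 ± 0.09) and Sesn3 (-0.59 ± 0.05) were lower. Mcl1, counted among the lower genes by its brighter probe set, is uncertain, since its 2 probe sets were called in opposite directions (0.30 and -0.71).

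Stress and turnover genes were also mixed. Of 45 unfolded protein, heat shock and oxidative stress genes 20 were lower and 13 higher, at a median of -0.10. These shares of 44.4% and 28.9% were near the 37.5% and 26.7% of all genes tested. The small heat shock proteins of muscle fell: Hspb1 read 8.57, 8.35 and 8.64 in γ+ and 10.44, 10.37 and 10.50 in γ- (-1.92 ± 0.07), Hspb2 fell by 1.22 ± 0.06 and Hspb3 by 1.38 ± 0.07. The large chaperone Hsp90aa1 read 11.73, 11.66 and 11.71 in γ+ and 11.02, 10.98 and 10.89 in γ- and rose by 0.74 ± 0.05, with Hsp90b1 (0.45 ± 0.05) and the metallothionein Mt1 (0.45 ± 0.06). Of 33 autophagy and ubiquitin ligase genes 18 were lower (54.5%) and 6 higher (18.2%), at a median of -0.35. Of all genes tested, 37.5% were lower and 26.7% higher. The muscle-specific ligase subunits led the falls: Asb2 read 6.31, 6.50 and 6.47 in γ+ and 9.21, 9.15 and 9.24 in γ- (-2.77 ± 0.07, limma adjusted p = 1.65e-14), Trim72 fell by 2.22 ± 0.09 and Trim55 by 1.73 ± 0.06. The general autophagy genes Atg12 (0.45 ± 0.10) and Ulk1 (0.25 ± 0.06) were higher.

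Interferon-stimulated genes were higher in γ+ in 49 of 56 cases and lower in 2, with a median of 0.77, and 17 rose by at least 1 log2. Rsad2, the antiviral enzyme viperin, read 9.69, 9.39 and 9.55 in γ+ and 6.83, 6.98 and 6.87 in γ- (2.65 ± 0.09, 6.29-fold, limma adjusted p = 8.35e-13). The γ- arrays were near the control mean of 6.80. Both groups had received adenovirus, and the part of the virus in these levels was not tested. Herc6, a ubiquitin ligase, read 8.77, 8.72 and 8.71 in γ+ and 6.30, 6.31 and 6.20 in γ- (2.46 ± 0.08), Oasl read 10.01, 9.87 and 9.96 and 7.77, 7.74 and 7.84 (2.16 ± 0.06), and the guanylate-binding protein Gbp5 read 9.34, 9.23 and 9.27 and 7.23, 7.18 and 7.32 (2.04 ± 0.06). In γ- Herc6 and Gbp5 were also above control, by 0.42 (limma adjusted p = 0.00566) and 0.24 (0.037). Rsad2 (0.633) and Oasl (0.327) were not called in γ- against control. The transcription factor Irf7 was higher by 1.80 and the ubiquitin-like modifier Isg15 by 1.74. The 2 lower members were the membrane protein Ifitm3 (10.67, 11.01 and 10.64 in γ+ and 11.41, 11.31 and 11.37 in γ-, -0.59 ± 0.08) and Samd9l (-0.55 ± 0.09).

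The interferon-stimulated response element, searched by its consensus on both strands, was found in 19 of the 46 promoters of this list on hand (41.3%) and in 70 of the 8309 promoters of all genes tested (0.842%). It was in 11 of the 249 promoters of genes higher by at least 1 log2 (4.42%) and in 2 of the 442 of genes lower by at least 1 log2 (0.452%). The windows of the 4 members with a match and the largest rise are shown.
Gbp5 (chr2:233910930-233910964, + strand): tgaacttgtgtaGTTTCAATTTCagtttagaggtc
Irf7 (chr1:205800071-205800105, - strand): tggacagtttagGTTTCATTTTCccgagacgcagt
Oasl2 (chr12:47383315-47383349, - strand): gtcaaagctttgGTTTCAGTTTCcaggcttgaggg
Ifit3 (chr1:241527269-241527303, + strand): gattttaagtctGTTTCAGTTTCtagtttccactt
These were Gbp5, Irf7, Oasl2 (1.67) and Ifit3 (1.36), and the match began 45 to 152 bases before the start.

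Inflammatory genes went mostly the other way, with 21 of 33 lower (63.6%) and 8 higher (24.2%) and a median of -0.38. Of all genes tested, 37.5% were lower and 26.7% higher. C3, the central complement protein, read 5.08, 5.32 and 5.14 in γ+ and 6.64, 6.78 and 6.75 in γ- (-1.55 ± 0.08), the acute phase protein Lcn2 read 6.74, 6.83 and 6.87 and 8.44, 8.36 and 8.49 (-1.61 ± 0.08), and the interleukin receptor Il1r1 fell by 1.22 ± 0.05. Cxcl10, a chemokine that interferons induce, read 10.75, 10.91 and 10.73 in γ+ and 8.73, 8.66 and 8.59 in γ- (2.13 ± 0.06, 4.39-fold, limma adjusted p = 1.68e-13). In γ- Cxcl10 was also above control, by 0.33 (limma adjusted p = 0.00792). It stood apart in size from the other higher members, Ccl5 (0.85 ± 0.08), Tnf (0.75 ± 0.13) and smaller rises in Ccl4 (0.45), Il6, Nfkbia (0.22), Nfkb2 (0.17) and Csf1 (0.14).

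Extracellular matrix and fibroblast genes were lower in 44 of 46, with a median of -0.99, beside the lower fibroblast markers given above. Col1a1, a chain of type I collagen, read 9.82, 9.82 and 9.76 in γ+ and 11.38, 11.42 and 11.44 in γ- (-1.61 ± 0.04, limma adjusted p = 4.62e-14), and Col1a2 fell by 1.35 ± 0.06. Thrombospondin, Thbs1, read 9.32, 9.15 and 9.33 and 11.48, 11.47 and 11.50 (-2.22 ± 0.05), and the crosslinking enzyme Lox read 8.34, 8.42 and 8.26 and 10.15, 10.15 and 10.18 (-1.82 ± 0.05). Periostin, Postn, fell by 1.68 ± 0.07. The one higher member was Fbln1 (0.40 ± 0.08), while its relatives Fbln2 (-1.84) and Fbln5 (-1.36) were lower.

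TGF-β and Hippo pathway genes were lower in 25 of 38 (65.8%) and higher in 2 (5.3%), with a median of -0.45. Of all genes tested, 37.5% were lower and 26.7% higher. The ligand Tgfb3 read 8.02, 7.74 and 8.09 in γ+ and 9.97, 9.90 and 9.96 in γ- (-1.99 ± 0.08), Tgfb2 fell by 1.11 ± 0.05, and Ccn2, a shared target of both pathways, read 8.65, 8.28 and 8.66 and 10.41, 10.42 and 10.50 (-1.92 ± 0.08). The receptor Tgfbr1, the signal transducers Smad1, Smad3, Smad4 and Smad5 and the coactivator Yap1 were not called. Tead2, a DNA-binding partner of YAP, was higher by 0.56 ± 0.07. The kinase Stk3 was higher by 0.16 ± 0.06 and lost its call in 4 of the 6 fits that left out an array (limma adjusted p-values of 0.0509 to 0.0997).

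The other cell type lists were mostly lower as well. Of 20 smooth muscle genes 19 were lower and 0 higher (median -0.82), led by calponin, Cnn1 (9.21, 9.06 and 9.22 in γ+ and 10.88, 10.85 and 10.95 in γ-, -1.73 ± 0.06), and filamin, Flna (-1.67 ± 0.07). The intermediate filament desmin, Des, fell by 1.36 ± 0.05 and the smooth muscle actin Actg2 by 1.11 ± 0.06. Des and Flna are not particular to smooth muscle cells. The vascular smooth muscle actin Acta2 fell by 0.56 ± 0.04, or 0.31 after cyclic loess normalization. Of 21 endothelial genes 19 were lower and 0 higher (median -0.52), among them the water channel Aqp1 (-1.63 ± 0.07), with the receptors Flt1 (-1.10 ± 0.08) and Tie1 (-0.92 ± 0.08) and Emcn (-0.98 ± 0.09) lower too. Plvap read 4.72, 4.83 and 4.71 in γ+, with a mean under the filter level, and 6.24, 6.17 and 6.35 in γ-. Of 15 macrophage and leukocyte genes 11 were lower and 1, the complement subunit C1qb with a γ- mean under the filter level, higher (median -0.35). The receptor subunit Fcer1g (-0.72 ± 0.13), Cd14 (-0.61 ± 0.06), Rac2 (-0.52 ± 0.10) and Laptm5 (-0.40 ± 0.08) were among the lower ones. The mesothelial marker Msln read 5.99, 6.02 and 6.24 in γ+ and 8.45, 8.31 and 8.48 in γ- (-2.33 ± 0.07), and the keratins Krt8 and Krt18 fell by 1.38 ± 0.08 and 1.15 ± 0.10.

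Immediate early and growth response genes were lower in 18 of 32 (56.2%) and higher in 4 (12.5%), at a median of -0.28. Of all genes tested, 37.5% were lower and 26.7% higher. Phosphatases that act on MAP kinases were among the largest falls, with Dusp4 reading 6.85, 6.47 and 6.75 in γ+ and 8.45, 8.36 and 8.48 in γ- (-1.74 ± 0.08), Dusp6 falling by 1.58 ± 0.09 and Dusp1 by 1.15 ± 0.06. Fos, Egr1 and Egr3 were not called. Klf5 read 8.82, 9.22 and 8.96 in γ+ and 8.01, 7.95 and 8.16 in γ- and was higher by 0.96 ± 0.09, and Atf3, given above, was the next largest rise. Dusp5 (0.22 ± 0.09) and Klf10 (0.19 ± 0.07) were called higher with all arrays, and each lost its call in 4 of the 6 fits that left out an array (limma adjusted p-values of 0.0601 to 0.0979 and 0.0821 to 0.119).

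Several of the largest differences were in genes outside these lists. Among the 15 largest rises, Psrc1, which acts on the mitotic spindle, read 8.95, 8.84 and 8.999 in γ+ and 6.37, 6.28 and 6.45 in γ- (2.56 ± 0.08, 5.91-fold, limma adjusted p = 1.17e-13). Dck, the kinase that salvages deoxycytidine, read 8.87, 8.92 and 9.03 and 6.70, 6.64 and 6.47 (2.34 ± 0.09), and Ddias, a suppressor of apoptosis after DNA damage, read 9.99, 10.01 and 9.90 and 7.67, 7.57 and 7.70 (2.32 ± 0.07). Each group was tight, and the arrays of γ- lay near the control means of 6.28, 6.54 and 7.57. Mns1, a protein of cilia and of meiotic nuclei (2.31 ± 0.11), Fam111a, a protease of replication forks (2.24 ± 0.08), Rtp3 (2.20 ± 0.11) and neuronatin, Nnat (2.18 ± 0.11), were the others. The γ- mean of Mns1, 4.95, was near the filter level of 4.782, so the size of its rise is uncertain.

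Among the 15 largest falls, the galactosyltransferase B3galt2 read 4.28, 4.88 and 4.71 in γ+ and 7.66, 7.66 and 7.66 in γ-, and the secreted phospholipase Pla2g5 read 6.12, 5.998 and 5.76 and 8.69, 8.56 and 8.71 (-2.69 ± 0.08). The γ+ mean of B3galt2 was under the filter level, so the gene passed the filter through the other groups and the size of its fall is not given. The remaining ones code for receptors and secreted proteins. Il1rl1, the receptor for an alarm cytokine, read 6.09, 5.76 and 6.05 in γ+ and 8.48, 8.39 and 8.44 in γ- (-2.47 ± 0.08), the chemokine receptor Ackr3 read 6.18, 5.69 and 6.13 and 8.44, 8.44 and 8.47 (-2.45 ± 0.10), and the inhibin subunit Inha fell by 2.45 ± 0.07. The laminin chain Lamb3 fell by 2.45 ± 0.07 and the matricellular protein Ccn5 by 2.43 ± 0.08.

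In 7 of the 868 genes that differed by at least 1 log2 the control mean lay nearer to γ+ than to γ-, and 5 of them were taken by the rule for named genes. Myh1, a fast skeletal myosin heavy chain, read 5.22, 5.16 and 5.19 in γ+, 6.86, 6.63 and 6.70 in γ- and 5.36 on average in control, so that γ- was 1.37 above control (limma adjusted p = 7.18e-06) and γ+ 1.54 ± 0.11 below γ-. Myh2, another fast skeletal heavy chain, read 4.56, 4.46 and 4.29 in γ+, 5.63, 5.75 and 5.63 in γ- and 4.72 in control. The γ+ means of Myh2 and Gria1 and the control mean of Myh2 were under the filter level. The neighbouring genes of this myosin family share long stretches of sequence, so their probe sets are uncertain as separate measurements. In Myh2 and in the next 3 genes both forms differed from control. The glutamate receptor subunit Gria1 read 4.35, 4.59 and 4.17 in γ+, 5.99, 5.72 and 6.001 in γ- and 4.95 in control (γ+ minus control -0.58, γ- minus control 0.95). Plppr5 read 7.81, 7.78 and 7.83 in γ+, 9.07, 8.92 and 9.02 in γ- and 8.11 in control (-1.20 ± 0.06 between the forms, and -0.30 in γ+ and 0.90 in γ- against control). Tent5d was the one gene of the 5 that was lower in γ- than in γ+, with 5.95, 6.13 and 6.03 against 7.26, 7.03 and 7.20 and 6.62 in control, which lay between the forms (γ+ minus control 0.54, γ- minus control -0.59).

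The called genes with the widest spread within γ+ owed it to replicate 2. Ccnk, a cyclin of transcription elongation, read 8.74, 9.997 and 8.90 in γ+ and 8.60, 8.53 and 8.46 in γ-, and its difference of 0.68 ± 0.21 was 0.29 without that array. Proser1 read 8.27, 9.34 and 8.22 and 7.97, 7.91 and 7.83, and its difference of 0.71 ± 0.19 was 0.34 without it. Tmem178a read 5.36, 4.39 and 5.45 and 5.85, 6.06 and 5.94, with -0.88 ± 0.19 in all and -0.54 without it. Zmiz1 read 7.79, 8.76 and 7.74 and 8.57, 8.54 and 8.57, overlapping groups with a difference of -0.46 ± 0.18 that became -0.80 without replicate 2 and lost its call without γ+ replicate 1 (limma adjusted p = 0.149) or 3 (0.168) or any one γ- array (0.0632 to 0.0715). Reep6 read 10.43, 11.49 and 10.39 in γ+ and 8.68, 8.59 and 8.68 in γ- (2.12 ± 0.19, limma adjusted p = 6.65e-08), with all γ+ arrays above all γ- arrays.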

How the data were processed

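Gene expression was measured on 12 Affymetrix rat gene arrays, 3 per group. The authors deposited log2 values for 28826 probe sets. The submitters' processing notes name MAS5, and for the background correction, probe summary and scaling the method was not given in the sources used here. Array medians lay between 5.33 and 5.53, and single values between 1.09 and 13.89. A scan date or slide was not used here, and the number of arrays limits the precision.

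Genes were named from the platform's probe table: 15209 probe sets had 1 symbol (15178 with an Entrez ID in RefSeq), 306 had several and 13311 had none. Probe sets with a mean above the 40th percentile (log2 4.782) were kept, which left 17295, and the brightest single-symbol probe set stood for each gene, which left 10025 of 14497 genes. Group means of all 12 arrays were fitted with limma 3.58.1 in R 4.3.3 (lmFit, and eBayes with an intensity trend, on 8 residual degrees of freedom), with Benjamini-Hochberg adjustment over all genes tested, a threshold of 0.05 and 95% intervals. The procedure was tested on simulated data. The 34 program lists and 8 marker lists hold 1205 genes, of which 1034 had a named probe set and 969 were tested. The members and lists were chosen with earlier results of these data known. Named genes were the 15 largest rises and 15 largest falls without overlap, up to 3 called members of lowest adjusted p per list and direction, members against a list's majority where 5 or fewer, a short list of cardiac, MEF2 and deacetylase genes, up to 5 genes whose γ- mean lay farther from control, and the 5 with the widest γ+ spread. Of the genes on that short list, Hdac9 was not tested. Promoters came from RefSeq's table for GRCr8. The sequence of 1 promoter match is not reported here. Alternatives changed the scaling, filter, probe set choice, variance model, samples and minimum change, 1 at a time.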

Additional observations from a re-analysis of the deposited data

How the results depend on the processing

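No called named gene changed sign under the alternatives tried. Hdac5, which was not called, went from -0.02 to 0.06 with arrays centred on their medians. The counts of calls over all genes kept within 1.5 times their values except where limma tested for a change of more than 1 log2, which called 467 genes, 150 higher and 317 lower in γ+, all 467 among the calls reported. Leaving out 1 array at a time gave 5946 to 6641 calls, 2417 to 2937 higher and 3445 to 3704 lower, and 853 to 880 of at least 1 log2. With the 6 compared arrays alone 6064 genes were called, and 5 named genes lost their calls. These were Atp1b2 (limma adjusted p = 0.0684), Foxo1 (0.0619), Klf10 (0.0737), Stk3 (0.0536) and Zmiz1 (0.0991). Centring arrays on their medians gave 6150 calls, 3091 higher and 3059 lower, so that the excess of lower calls was lost (50.3% higher against 41.6% as reported), and moved the median of all genes from -0.06 to 0.01. The replicate numbers did not pair the arrays: deviations of same-numbered γ+ and γ- arrays correlated at 0.034, 0.025 and -0.052, and with the replicate number as a block 6326 genes were called, 2624 higher and 3702 lower, of which 868 were of at least 1 log2, and no named gene changed its call. With the filter at the 60th percentile the calls in 7 short lists dropped by more than 1.5 times, as fewer genes were tested, and the erythroid markers gave 1 lower member with no filter and with array weights against 0. Dim probe sets limit what can be read: genes under the filter level have no test, and small shifts are uncertain if the groups were normalized separately.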

Other observations

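Probe sets that carry no gene symbol in the probe table also differed between the forms. In a fit over all probe sets above the filter, added after seeing the data, 2879 of 6613 unnamed probe sets were called by limma (43.5%), 1357 higher and 1522 lower in γ+, and 330 of the calls were of at least 1 log2. In the same fit 6440 of 10570 probe sets with one symbol were called (60.9%).

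Probe sets of one gene did not always move together. Of 388 genes with several single-symbol probe sets above the filter, 284 had all of them in one direction, 145 had all of them called in one direction, and 9 had calls in opposite directions: Eml4, Larp7, Mcfd2, Mcl1, Rpl21, Rpl31, Rps26, Uqcc2 and Zdhhc14. For Larp7 the values were -0.29 and 0.53 log2, and for Mcfd2 -0.61 and 0.30. Rpl21, Rpl31 and Rps26 are ribosomal protein genes with many near-identical copies, so their probe sets are uncertain.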
